A study of Mus musculus with 6 samples.

Results

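The SLAM family receptors are a group of related immunoglobulin-type proteins on the surface of blood cells, and the group described here has 9 member genes: Slamf1, Cd48, Cd244 (Cd244a in the array annotation), Cd84, Ly9, Slamf6, Slamf7, Slamf8 and Slamf9. They were taken by name from a table of 18193 measured genes, and all 9 were measured. The arrays compared RNA of 2 cell populations sorted from the wild-type mouse strain C57BL/6, with 3 arrays of each. LSK cells were low in lineage markers and carried Sca-1 and Kit, a gate that holds the blood stem cells and multipotent progenitors. LK cells were low in lineage markers, lacked Sca-1 and carried Kit, a gate that holds the committed progenitors of red cells, platelets and myeloid cells. No treatment or mutation was applied to either population, and neither an age nor a pooling of animals is given in the labels.

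Most SLAM receptors bind a copy of themselves on the neighbouring cell. CD244 is an exception, since its ligand is CD48, a family member held in the membrane by a lipid anchor and without a tail inside the cell. The tails of most other members carry tyrosine switch motifs that bind the small adaptor SAP, which brings in the kinase Fyn, or phosphatases when SAP is absent. In mouse bone marrow the proteins CD150 (the product of Slamf1), CD48 and CD244 serve as sort markers. Stem cells carry CD150 and lack CD48 and CD244, multipotent progenitors gain CD244, and most restricted progenitors carry CD48.

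Values are log2 intensities of probe sets after RMA, a method that corrects background and normalises arrays to each other. Where a gene had several probe sets, the one brightest on average over the 6 arrays stands for it. Of the 18193 genes, 58.7% had a mean log2 under 4, and values under 4 are described here as near the lower end of the range, where a difference in RNA is compressed. Median intensities on the linear scale ranged from 7.88 to 8.49. The replicate 2 arrays of both populations stood apart from the other arrays on the second principal component (-31.7 and -41.2 against 7.25 to 29.8). The log2 difference between 3' and 5' control probe sets, which rises with RNA degradation and incomplete amplification, was 2.32, 2.32 and 3.30 in LSK and 3.26, 3.94 and 3.40 in LK. Kit, the gene of the marker shared by the gates, averaged 8.55 ± 0.39 on the LSK arrays and 7.74 ± 0.35 on the LK arrays (log2, SD, n = 3 each). The gene of Sca-1 is not analysed here.

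Of the 9 members, Cd244 was higher in LSK, 0 were lower, and 8 did not pass the threshold, an adjusted p under 0.05 in limma over all genes. Over all genes tested, 3.84% were higher in LSK and 2.89% lower under the same rule. At an unadjusted p under 0.05, 2 members were higher (Cd244 and Ly9) and 0 lower, against 10.5% and 11.9% of all genes. The members fell into 2 sets by level. Cd244, Cd48 and Cd84 reached a log2 of 4 or more on at least 1 array, and the other 6 stayed under it on every array. The median log2 difference of the 9 members, LSK minus LK, was 0.17, against -0.02 over all genes. It was above 0 in 8 members and in 46.6% of all genes. Among the 8 are Slamf1, Ly9, Slamf6, Slamf7 and Slamf9, which stayed under a log2 of 4. All of these but Ly9 changed sign in other fits.

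**Figure D1:**
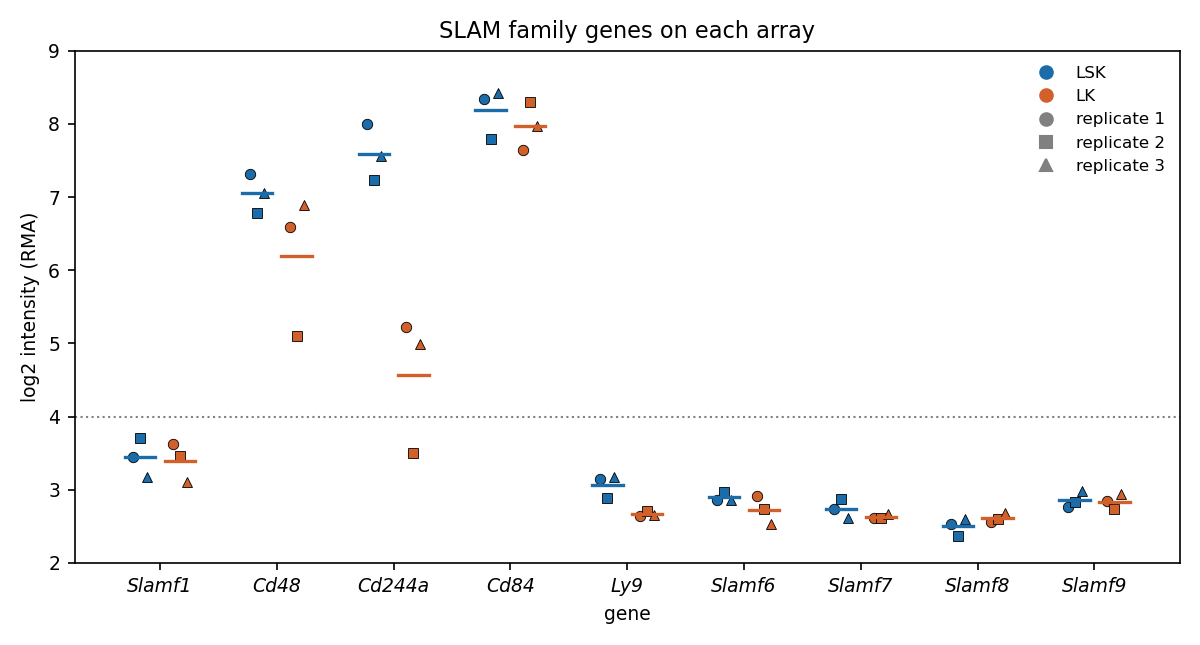
Log2 intensity of the 9 SLAM family genes on each of the 6 arrays. Blue symbols are LSK and orange symbols LK, circles, squares and triangles are replicates 1, 2 and 3, bars are the means of 3 arrays, and the dotted line marks a log2 of 4. Cd244a separates the populations, Cd48 and Cd84 overlap, and the other 6 genes lie under the line.

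Cd244 encodes the receptor 2B4, known from natural killer cells and used in bone marrow as a marker that multipotent progenitors gain. Its log2 intensities were 7.996, 7.23 and 7.56 on the LSK arrays and 5.22, 3.50 and 4.99 on the LK arrays. Every LSK array lay above every LK array, with the lowest value on the replicate 2 array of LK, the only value of this probe set under a log2 of 4. The mean was 7.59 ± 0.39 for LSK and 4.57 ± 0.93 for LK (SD, n = 3 each). Cd244 thus rose 8.15-fold from LK to LSK, a log2 difference of 3.03 with an SE of 0.46 and a 95% interval of 1.92 to 4.13 (limma, adjusted p = 0.0162). The difference was 2.78, 3.73 and 2.57 in the pairs of arrays with the same replicate number. In bulk RNA, more cells with the transcript and more transcript per cell cannot be told apart.

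The call of Cd244 was lost in some fits, while its log2 difference stayed between 2.49 and 3.35 without single arrays. Without the replicate 2 arrays of both populations the log2 difference was 2.68 (limma adjusted p = 0.0177). It was 2.83 without LSK replicate 1 (adjusted p = 0.0716) and 3.24 without LK replicate 3 (adjusted p = 0.0556), and the adjusted p stayed under 0.05 in the 4 other fits without 1 array. When the 3' to 5' value of the array entered the fit as a covariate, it was 2.33 (adjusted p = 0.335), and the part of this measure in the result was not tested further. The count of members higher in LSK was therefore 0 in these 3 fits. Calls fell over the whole table too, from 1225 genes to 322 without LSK replicate 1, 306 without LK replicate 3 and 25 with the covariate.

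A further probe set of Cd244 did not follow the first. It gave 2.56, 2.69 and 2.98 in LSK and 2.45, 3.05 and 2.86 in LK, all near the lower end, with overlapping populations. Its log2 difference was -0.04 (95% interval -0.51 to 0.43, adjusted p = 0.943 over all probe sets), and the mean of both probe sets differed by 1.49. When each of 45037 probe sets was tested for itself, the bright Cd244 probe set was the only one of the 15 probe sets of the family past the threshold (adjusted p = 0.0250), and 2.03% of all probe sets were higher in LSK.

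Cd48, the ligand of CD244, is carried by most blood cells outside the stem cell fraction. Its single probe set gave 7.32, 6.78 and 7.05 in LSK and 6.60, 5.10 and 6.89 in LK. The populations overlapped, since LK replicate 3 lay above LSK replicate 2, and LK replicate 2 was lower than every other array. The log2 difference was 0.86 (SE 0.46, 95% interval -0.24 to 1.95, limma adjusted p = 0.342). It fell to 0.31 without LK replicate 2 and was 0.44 without both replicate 2 arrays, and 0.22 with the 3' to 5' value as a covariate, so its size rested largely on that array and moved with that measure.

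Cd84 encodes a self-binding receptor found on platelets, mast cells and lymphocytes. Its log2 intensities were 8.34, 7.80 and 8.42 in LSK and 7.65, 8.30 and 7.97 in LK. The populations overlapped on both sides, and LK replicate 2 was here the highest LK array. The log2 difference was 0.22 (SE 0.24, 95% interval -0.35 to 0.79, adjusted p = 0.660). Without both replicate 2 arrays it was 0.58 (adjusted p = 0.154), and with the 3' to 5' covariate 0.67 (adjusted p = 0.590). The other Cd84 probe set stayed between 3.16 and 3.90 on all arrays.

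Whether the 3 measurable members differed by the same amount was compared within arrays, a choice made after their values were seen. The log2 value of Cd244 minus that of Cd48 was 0.68, 0.44 and 0.51 in LSK and -1.38, -1.60 and -1.90 in LK, a shift of 2.17 between the populations. In LK replicate 2, where both genes had their lowest value, this quantity lay between those of the other LK arrays. The shift of Cd244 against Cd84 was 2.81. Both gave p = 0.1 in a two-sided exact permutation test, the smallest that 3 arrays against 3 allow, and 0.15 after Benjamini-Hochberg adjustment over 3 such contrasts. The remaining contrast, Slamf1 against Cd48, shifted by -0.81 (exact permutation p = 0.2, adjusted 0.2), with Slamf1 near the lower end throughout.

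**Figure D2:**
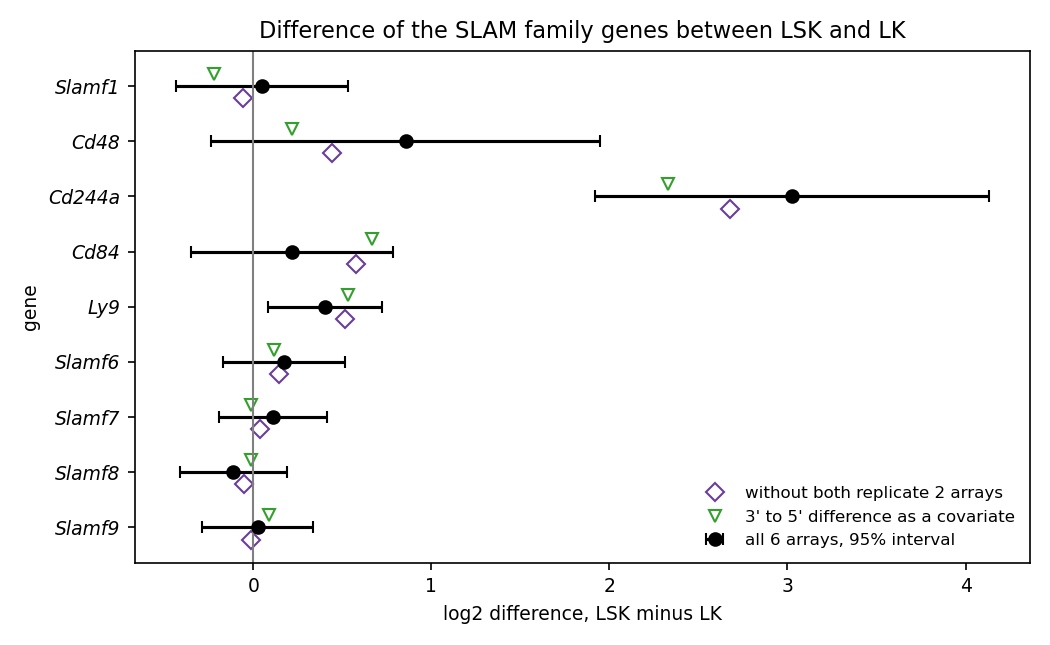
Log2 difference, LSK minus LK, of each SLAM family gene. Black points are the fit to all 6 arrays with 95% intervals, purple diamonds the fit without both replicate 2 arrays, and green triangles the fit with the 3' to 5' value as a covariate. Cd244a lies at 3.03 with all arrays, 2.68 without the replicate 2 arrays and 2.33 with the covariate, and the intervals of the other genes except Ly9 include 0.

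The promoters of the 3 measurable members are shown because these genes lie in a common cluster on chromosome 1 and differed in their values. Each sequence runs from 250 bases before the start of the transcript to 50 bases after it, 5′ to 3′, on the plus strand of GRCm38.p6, from RefSeq. They span chr1:171558943-171559242 for Cd244a, chr1:171681742-171682041 for Cd48 and chr1:171839447-171839746 for Cd84. Capitals mark matches, on either strand, to 4 short motifs that were searched: AGATAA for GATA factors, TGTGGT for RUNX factors, AGGAAG for ETS factors and TATAAA for the TATA box.
Cd244a: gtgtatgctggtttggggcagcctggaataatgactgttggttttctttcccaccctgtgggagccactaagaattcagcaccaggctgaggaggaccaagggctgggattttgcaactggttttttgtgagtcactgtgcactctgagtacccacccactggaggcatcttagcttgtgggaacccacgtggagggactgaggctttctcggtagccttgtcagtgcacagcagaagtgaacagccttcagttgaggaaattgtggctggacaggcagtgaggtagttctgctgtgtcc
Cd48: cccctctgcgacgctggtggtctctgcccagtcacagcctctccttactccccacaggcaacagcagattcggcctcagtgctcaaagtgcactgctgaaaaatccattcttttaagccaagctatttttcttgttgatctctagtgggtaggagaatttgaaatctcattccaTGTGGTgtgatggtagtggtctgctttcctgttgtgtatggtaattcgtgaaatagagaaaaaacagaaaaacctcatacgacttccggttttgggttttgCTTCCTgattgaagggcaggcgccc
Cd84: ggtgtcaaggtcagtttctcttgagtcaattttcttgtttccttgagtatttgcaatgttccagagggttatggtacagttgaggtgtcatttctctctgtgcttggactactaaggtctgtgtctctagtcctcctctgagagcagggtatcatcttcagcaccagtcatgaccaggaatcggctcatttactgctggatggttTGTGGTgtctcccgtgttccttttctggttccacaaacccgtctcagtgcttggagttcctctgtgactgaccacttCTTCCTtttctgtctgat

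The promoter of Cd244a held none of these letters. Counted from the transcript start, Cd48 had a RUNX match at -76 and an ETS match at 25, and Cd84 had a RUNX match at -45 and an ETS match at 32. No motif match overlapped another. Among all 32851 promoters of the RefSeq table, 16.8% held the RUNX letters, 35.4% the ETS letters, 11.2% the GATA letters and 13.6% the TATA letters. The table held promoters of 8 members. Of these, 2 had a RUNX match, 5 an ETS match, 0 a GATA match and 0 a TATA match. A match describes the letters and does not show that a factor binds there.

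Slamf1 encodes CD150, the marker that stem cells and the early progenitors of platelets and red cells carry. Its brightest probe set gave 3.45, 3.71 and 3.17 in LSK and 3.63, 3.46 and 3.11 in LK, with the populations interleaved. The log2 difference was 0.05 (95% interval -0.44 to 0.53, limma adjusted p = 0.926). The other Slamf1 probe sets had means of 3.31 ± 0.12 and 2.67 ± 0.22 (SD, n = 3) in LSK and 3.14 ± 0.07 and 2.53 ± 0.08 (SD, n = 3) in LK. All 3 probe sets thus stayed near the lower end on all 6 arrays, and a difference in Slamf1 RNA was not detectable with them.

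Ly9 encodes CD229, a self-binding receptor of lymphocytes. It gave 3.14, 2.89 and 3.18 in LSK and 2.64, 2.71 and 2.65 in LK. The LSK arrays lay above the LK arrays, as they did for 13.2% of all genes, but all values were near the lower end. The log2 difference was 0.40 (SE 0.13, adjusted p = 0.136), and Ly9 passed when arrays were weighted by their quality (0.45, adjusted p = 0.0387). Among the members, Cd244 and Ly9 were the 2 whose populations did not overlap.

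Slamf6 encodes a receptor of T, B and natural killer cells that binds itself, and its brightest probe set lay between 2.52 and 2.97 on all arrays. Its probe sets disagreed in direction. The brightest had a log2 difference of 0.17 (adjusted p = 0.551), and the dimmest gave 2.26, 2.56 and 2.17 in LSK against 2.89, 2.60 and 2.99 in LK, a difference of -0.50 (adjusted p = 0.178 over all probe sets). Both lie under a log2 of 3. Slamf7, a receptor of natural killer and plasma cells, lay between 2.61 and 2.87. Slamf8 and Slamf9, which have short tails and are known from myeloid cells, lay between 2.37 and 2.68 and between 2.74 and 2.99. The log2 differences of these 3 genes were 0.11, -0.11 and 0.02, with adjusted p from 0.674 to 0.941.

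**Figure D3:**
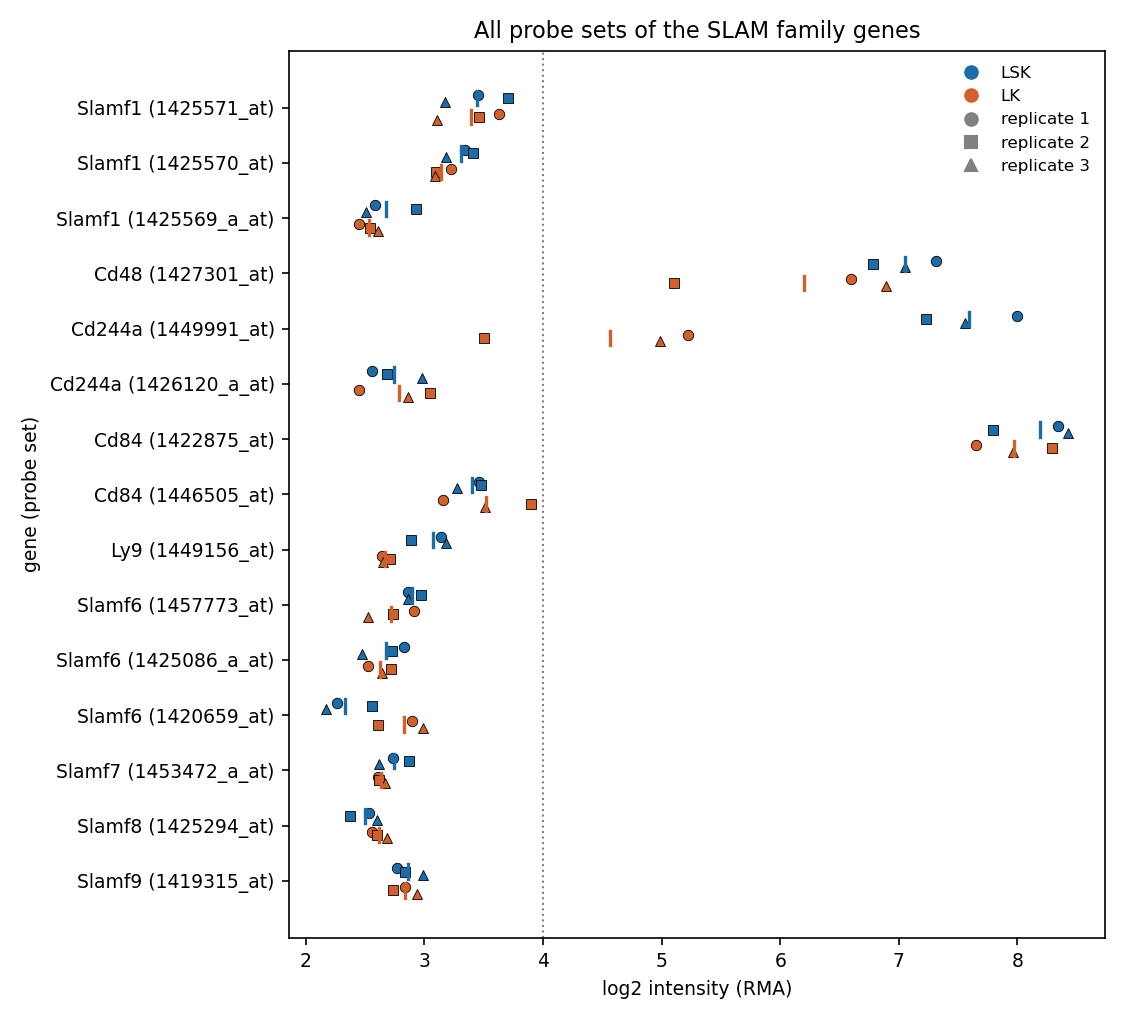
Log2 intensity of all 15 probe sets of the SLAM family genes on each array, with symbols and colours as for the plot of the genes. Vertical bars are the means of 3 arrays, and the dotted line marks a log2 of 4. In 12 of the 15 probe sets all arrays lie left of the line, and 1 probe set each of Cd48, Cd244a and Cd84 reaches beyond it.

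The 9 members lie on chromosome 1 in the RefSeq gene order of GRCm38.p6, with Cd244a first and Slamf8 last. The order is Cd244a, Ly9, Slamf7, Cd48, Slamf1, Cd84 and Slamf6, and after a stretch of other genes Slamf9 and Slamf8. Among the 35 other genes between the ends, 19 are protein-coding and 17 of these were measured. None passed the threshold in limma (0 higher and 0 lower), with a median log2 difference of -0.02. At an unadjusted p under 0.05 there were 2 higher and 2 lower of the 17, beside 10.5% and 11.9% of all genes. In a fit blocked on the replicate number, the same 4 passed, 2 higher (Vangl2, 0.9997, and Pea15a, 1.38) and 2 lower (Copa, -1.07, and Igsf8, -0.66), with adjusted p from 0.0156 to 0.0459. In that fit 7.02% of all genes were higher and 7.36% lower, and Cd244 had an adjusted p of 0.00391. Cd244 and its direct neighbour Ly9 differed by 3.03 and 0.40, and Cd48 and its neighbour Slamf1 by 0.86 and 0.05.

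The genes most like Cd244 over the 6 arrays were AW112010, Capn2, a calpain protease gene, and Bex1. Likeness was the root mean square distance between log2 profiles after each gene was centred on its own mean, and it was 0.18, 0.22 and 0.22. AW112010 gave 9.01, 8.39 and 8.30 in LSK and 6.29, 4.79 and 5.89 in LK. Like Cd244, all 3 genes had their lowest value on LK replicate 2, and their log2 differences lay between 2.80 and 3.23. Both traits follow from choosing the genes by likeness over these same arrays and are not separate observations.

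Downstream of the receptors, 16 of 20 listed adaptor, kinase and phosphatase genes were measured, and Sh2d1b1, Sh2d1b2, Lck and Lyn are not analysed here. In LSK 3 were higher, 0 were lower and 13 did not pass, beside 3.84% of all genes higher and 2.89% lower. The median log2 difference was 0.35, and the difference was above 0 in 11 of the 16 and in 46.6% of all genes. At an unadjusted p under 0.05, 4 were higher and 1 lower (Ptpn11), beside the 10.5% and 11.9% of all genes at that rule. The gene of SAP itself, Sh2d1a, gave 3.07, 4.13 and 3.12 in LSK and 2.92, 3.15 and 2.94 in LK (difference 0.44, limma adjusted p = 0.460), so 1 array alone exceeded a log2 of 4.

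Fyn, the kinase that SAP brings to SLAM receptors, gave 8.35, 8.28 and 8.17 in LSK and 6.75, 6.25 and 6.14 in LK. The populations did not overlap, and LSK exceeded LK 3.69-fold (1.88 on the log2 scale, SE 0.19, limma adjusted p = 0.00483). Its dimmer probe set, between 3.16 and 4.31, differed by 0.39 with overlap. Plcg1, a phospholipase that releases second messengers after receptor signals, gave 10.76, 10.59 and 10.17 in LSK and 8.83, 8.58 and 8.20 in LK. The difference was 1.97 (SE 0.22, adjusted p = 0.00665). It was 0.72 as a mean of 3 probe sets, 2 of which lay under a log2 of 4 on all arrays.

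Prkcq, the protein kinase C theta of T cell and SLAM signalling, gave 5.47, 5.09 and 5.41 in LSK and 4.39, 3.52 and 3.80 in LK. The log2 difference was 1.42 (SE 0.25, adjusted p = 0.0234). Leaving out 1 array ended its call in 4 of the 6 cases, namely replicates 1 and 3 of LSK and replicates 2 and 3 of LK, with adjusted p up to 0.0976, while the log2 difference stayed between 1.23 and 1.38. Without both replicate 2 arrays Fyn alone of the 3 passed (adjusted p = 0.0387), with 0.0534 for Plcg1 and 0.0597 for Prkcq, at log2 differences of 1.81, 1.95 and 1.35. When the replicate number was added to that fit as a block, all 3 passed (adjusted p = 0.0202 for Fyn, 0.0144 for Plcg1 and 0.0364 for Prkcq). With the 3' to 5' covariate 0 of the 16 passed.

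The phosphatases that bind SLAM tails differed in sign. Inpp5d, an inositol phosphatase, had a log2 difference of 1.01 (limma adjusted p = 0.136). In the blocked fit its adjusted p was 0.0273, which made it the fourth gene of the list higher in LSK, beside 7.02% of all genes. The tyrosine phosphatase genes Ptpn6 and Ptpn11 had log2 differences of 0.56 and -0.36 (adjusted p = 0.306 and 0.209). Of the other listed genes, the adaptors Vav1, Dok1 and Dok2 differed by -0.09, -0.06 and 0.14, and the autophagy genes Becn1, Pik3c3 and Uvrag, which have been linked to Slamf1, by 0.34, 0.43 and -0.28.

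**Figure D4:**
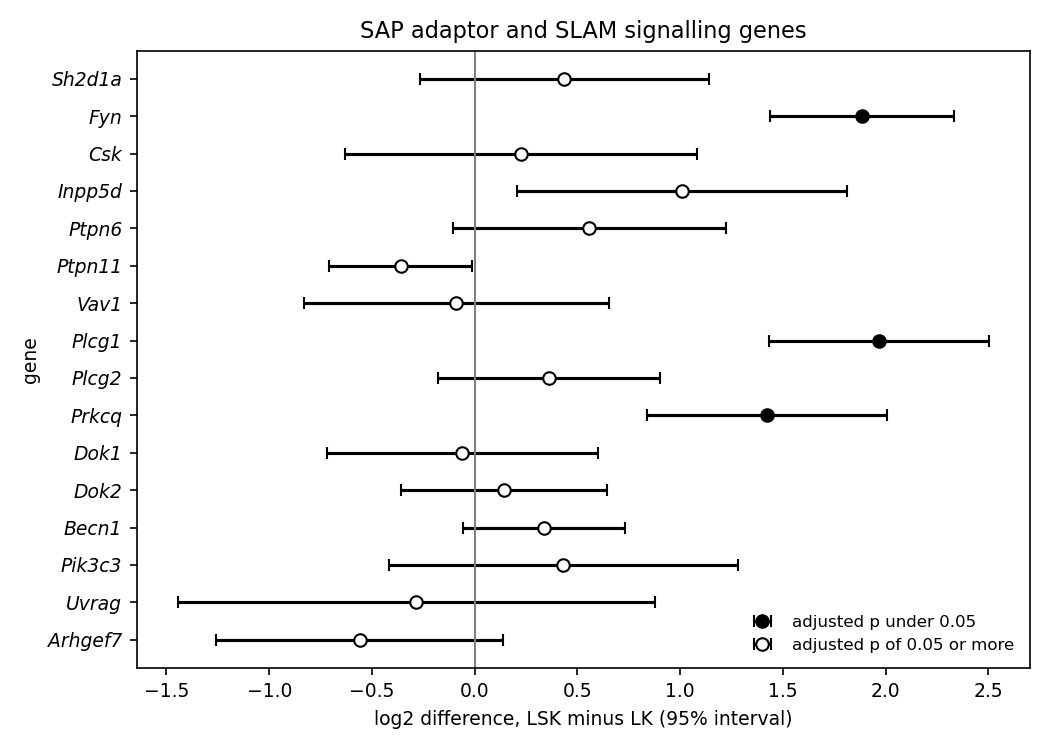
Log2 difference, LSK minus LK, of the 16 measured SAP adaptor and SLAM signalling genes, with 95% intervals. Filled points have a limma adjusted p under 0.05 over all genes. Fyn, Plcg1 and Prkcq are filled and lie between 1.42 and 1.97.

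Cd2, which encodes a relative of the family that also binds CD48 in the mouse, stayed between 2.35 and 2.63 (difference 0.10, adjusted p = 0.748). Of the 3 genes listed as CD48, its ligand receptors CD244 and CD2, Cd244 was thus the 1 that passed. Among 17 measured surface markers that are sorted together with SLAM receptors, 4 were higher in LSK, 3 lower and 10 did not pass. Over all genes 3.84% were higher and 2.89% lower. The markers of stem and multipotent cells Flt3, Procr, Cd27 and Cd34 differed by 4.02, 3.22, 2.72 and 1.36. The Fc receptor genes Fcgr3 and Fcgr2b, markers of granulocyte and monocyte progenitors, differed by -2.64 and -2.38 and the transferrin receptor Tfrc by -1.55. With the replicate number as a block 6 were higher, Kit and Tek besides the 4 (adjusted p = 0.0185 and 0.0131), and 3 lower. In that fit 7.02% of all genes were higher and 7.36% lower.

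Markers of mature cells known to carry SLAM receptors were read beside Cd244. In limma 3.84% of all genes were higher in LSK and 2.89% lower, and 7.02% and 7.36% in the blocked fit. At an unadjusted p under 0.05 the shares were 10.5% and 11.9%. These shares stand beside the counts in this paragraph and the next. Of 9 measured natural killer cell markers, 8 stayed under 4 on every array and reached at most 3.16, the defining Ncr1, Klrd1 and Prf1 among them. The ninth, Nkg7, a granule protein gene, lay between 9.21 and 9.95 in LSK and between 9.88 and 11.29 in LK, with overlap. Its difference was -0.95 (limma unadjusted p = 0.0410). The summed linear intensity of this list was 651 to 1041 in LSK and 997 to 2563 in LK. These sums came mostly from Nkg7 and say little about the other 8 markers. Of 8 measured mast cell and basophil markers, 0 were higher in LSK and 2 lower, Hdc (-3.56) and Ms4a2 (-1.83), with summed intensities of 1106 to 1341 in LSK and 1079 to 2043 in LK. With the block 4 were lower (Cpa3 and Mcpt8 added, adjusted p = 0.0236 and 0.0264). Gata2, which did not pass, was the brightest of these markers on every LSK array. It averaged 10.07 ± 0.18 in LSK and 9.47 ± 0.64 in LK (log2, SD, n = 3, difference 0.60, limma adjusted p = 0.335). The sums of this list in LSK thus came mostly from Gata2 and say little about its other markers. Of 10 T cell markers, 8 stayed under 4, the CD3 genes included, and 1 was higher, the adaptor gene Lat (4.53 ± 0.29 against 3.59 ± 0.06, SD, n = 3, adjusted p = 0.0291). Their summed intensity was 100 to 201 in LSK and 83.8 to 123 in LK. Of 9 B cell markers, 7 stayed under 4 and 0 passed in limma, nor at an unadjusted p under 0.05 (lowest p for Ms4a1, difference -0.64, adjusted p = 0.235), with sums of 71.4 to 116 in LSK and 70.4 to 82.3 in LK.

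The other lists differed in how many of their markers passed. Among plasma cell markers 1 of 6 was higher, Sdc1 (4.11), with sums of 180 to 640 in LSK and 44.8 to 48.6 in LK. Jchain, the joining chain of secreted antibodies, gave 5.35, 2.58 and 8.94 in LSK and 2.96, 3.10 and 3.16 in LK (adjusted p = 0.363), so the highest sum came mostly from Jchain on LSK replicate 3, while Prdm1, Mzb1, Irf4 and Tnfrsf17 stayed under 4. Among 9 dendritic cell markers Cd74 was higher (2.20) and Zbtb46 lower (-2.20), with sums of 363 to 646 and 269 to 317 in LSK and LK. In the blocked fit 3 were higher (H2-Ab1 and Bst2 added, adjusted p = 0.0254 and 0.0311). Of 10 macrophage markers 1 was higher, C1qb (1.503), and 7 stayed under 4 (sums 82.9 to 93.4 and 73.7 to 83.1). C1qb itself lay close to the lower end, with 4.07, 3.65 and 3.79 in LSK and 2.69, 2.12 and 2.20 in LK. C1qa and C1qc, which stayed under 4, differed by 0.15 and 0.05 and did not pass. None of 8 megakaryocyte markers passed in limma (lowest p for Gp9, 0.98, adjusted p = 0.0670), with sums of 179 to 219 and 211 to 476. In the blocked fit 1 was higher, Gp9 (adjusted p = 0.0241), and 1 lower, Pf4 (adjusted p = 0.0433). At an unadjusted p under 0.05, 1 of the 8 was higher (Gp9) and 2 were lower (Pf4 and Vwf), against 10.5% and 11.9% of all genes. Of 8 erythroid markers 5 were lower, led by Ermap (-6.35), Car1 (-6.06), Klf1 (-4.80) and Gata1 (-3.28), with sums of 687 to 1151 and 4580 to 8384, and 6 were lower with the block (Epor added, adjusted p = 0.0262). Of 8 granulocyte and monocyte progenitor markers 5 were lower, led by Elane (-2.81), Ms4a3 (-2.56), Ctsg (-1.97) and Prtn3 (-1.90), with sums of 4754 to 10245 and 15923 to 30435. With the block 7 were lower (Csf1r and Irf8 added, adjusted p = 0.0215 and 0.0256). The part of these cell types in the Cd244 difference was not tested.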

How the data were processed

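The measurements are RNA levels of sorted LSK and LK cells on an Affymetrix mouse array, 3 arrays each, after linear amplification, per the labels' protocols. The authors deposited 1 intensity per probe set and array, not logged, which the submitters' processing notes tie to RMA, the affy package and R 2.11.0. Quantile normalisation within RMA hides a shift of all genes. Scan files and detection calls are not used here. Precision is limited by the 3 arrays per population.

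Log2 was taken. Control probe sets (64 of 45101) were left out, and probe sets with 1 symbol (34945; 932 had several and 9160 were not listed) were kept. Symbols were updated through RefSeq (34741 matched). The populations were compared by limma 3.58.1 (R 4.3.3, lmFit and eBayes, two-sided), a model with population alone whose p-values were adjusted by Benjamini-Hochberg across 18193 genes and which was checked on simulated data. Intervals are 95%. The members, the gene lists and the rule for named genes (members, called list genes up to 4 a list or the lowest p, 3 most alike genes) were chosen with earlier results of these data known. Other list genes were named after their values were seen.

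The labels number the arrays 1 to 3 in both populations. Deviations of arrays with the same number from their population means correlated across genes (0.417, 0.433 and 0.273, at most 0.039 between different numbers), so the numbers were taken to pair the arrays. The main limma p-values and the exact permutation tests do not use this pairing. Blocked values are given where a call changed. The labels do not say that arrays came from separate animals, so the spread behind the p-values is that between these 6 samples only and may be technical. No 2 arrays were identical (0 of 15 pairs). The alternatives tried were a block for the replicate number, cyclic loess or a second quantile normalisation, leaving out dim genes, other probe set rules, trend and robust variances, array weights, the 3' to 5' covariate and leaving out arrays. The fit without the replicate 2 arrays but with the block, and the contrasts of Cd244, were added after the data were seen.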

Additional observations from a re-analysis of the deposited data

How the results depend on the processing

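No member was lower in LSK under any of the 17 alternatives. The count higher in LSK, 1 in the report, was 2 with array weights (Ly9 added), 0 with the 3' to 5' covariate and 0 to 1 without single arrays, and stayed at 1 with the replicate block. Genes past the threshold numbered 1225, and 2617 with the replicate block, 2606 with array weights, 537 without both replicate 2 arrays (1124 when the block was added to that fit), 25 with the 3' to 5' covariate and 306 to 1269 without single arrays. The listed signalling genes past the threshold, 3 in the report, were 0 with the covariate, 1 without both replicate 2 arrays (3 with the block) and 2 to 3 without single arrays. The cause of these moves was not tested. The replicate block changed no call of a member. Cd244 kept its direction in all 17 alternatives (1.49 to 3.35).

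Uncalled members near 0 changed sign. Slamf1 was -0.22 with the covariate, -0.056 without both replicate 2 arrays, with and without the block, and -0.098 to 0.18 without single arrays. Slamf6 was -0.091 as a mean of its probe sets and Slamf7 -0.013 with the covariate. Slamf9 was -0.044 with array weights, -0.013 without both replicate 2 arrays, with and without the block, and -0.037 to 0.075 without single arrays. The filter on dim genes left 3 members to test, so the other 6 have no value there. Signal near the lower end of the range limits what can be read for these 6.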

Other observations

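Some lymphoid genes, picked after the values were seen, were higher on LSK replicate 2 than on the other LSK arrays, and others were not. Of 10 T cell markers 4 were highest and 3 lowest on it, and of 9 B cell markers 7 were highest and 1 lowest. Most of these markers, 8 of the 10 and 7 of the 9, stayed under a log2 of 4 on every array. The median intensity of LSK replicate 2 was 8.36, against 8.04 and 8.06 on the other LSK arrays. Its upper quartile was 22.1, against 25.6 and 25.8. The share of all genes highest on that array was not computed, so these counts have no background to be read against. Sh2d1a, the SAP gene, was at a log2 of 4.13 there against 3.07 and 3.12. Cd4 was at 3.99 against 2.93 and 2.89, and Cd8a, the co-receptor of cytotoxic T cells, at 3.44 against 2.52 and 2.57. Ebf1, an early B cell transcription factor, reached 5.76 against 3.27 and 3.54. Bcl11b, a T cell transcription factor, reached 6.82 against 4.62 and 4.87, and it was also highest on replicate 2 within LK (5.85 against 4.53 and 4.37). Cd8b1, the partner chain of Cd8a, was lowest there (2.28 against 2.78 and 2.57), as were Il7r (2.78 against 2.99 and 3.79) and Cd5 (2.52 against 2.56 and 2.72). Cd3d, Cd3e and Cd3g stayed between 2.42 and 3.01 on the LSK arrays.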
